A study of Mus musculus with 14 samples.

Results

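Gramd3, Frem2, Fgfr3, Myoc and Gm14296 are 5 of the 43346 genes counted by RNA sequencing in mouse brain, and they were picked because every vehicle APP/PS1 mouse had a lower level than every NTG mouse. Of the 16417 genes tested between these groups, 628 (3.83%) had that order, and 220 (1.34%) were lower with an adjusted p under 0.05. The 5 genes are those with the smallest p among the genes that met both conditions, so they were chosen by their counts in these 2 groups, and that difference is described below without a test. In a tissue extract, fewer cells of a type and less RNA per cell cannot be told apart.

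The study asked how long treatment with CP2, a small molecule that partly inhibits mitochondrial complex I, changed the brain of mice with familial Alzheimer's disease mutations. All 14 mice were females of the labelled strain C57BL/6;SJL-Tg, aged 23 months, and brain tissue spanning hippocampus and cortex was taken from each. NTG mice were wild type and non-transgenic (n = 4, mice 7 to 10), APP/PS1 +/+ mice carried the mutant human transgenes of that name (n = 5, mice 16 to 20), and both drank water with the polyethylene glycol vehicle although their label for treatment reads non-treated. The remaining APP/PS1 +/+ mice (n = 5, mice 21 to 25) received CP2 at 25 mg/kg/day in the same vehicle from 9 months of age. The promoters that drive the 2 transgenes are not given in the sources used here, and NTG mice given CP2 were not used here.

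Total counts per mouse ranged from 70548781 to 106235625, so that 3 counts corresponded to at most 0.0425 CPM (counts scaled to libraries of equal size), and each of the 5 genes had at least 329 counts in every mouse. The defining markers of neurons, astrocytes, microglia and oligodendrocytes were all above 0 in every mouse, as labelled for brain. Mouse 16 stood apart with a summed level of striatal markers of 1932.4 CPM, against at most 287.2 CPM in the other mice. Its summed thalamic markers were 164.9 CPM, against at least 360.9 CPM in the others, so each fit was also run without mouse 16. Summed choroid plexus markers, the FGF co-receptor gene Kl among them, ranged from 26.3 CPM (NTG mouse 9) to 1356.3 CPM (vehicle APP/PS1 mouse 17). Log2 fold changes from NTG without mouse 16 were -1.52 for Gramd3, -1.35 for Frem2, -0.44 for Fgfr3, -1.76 for Myoc and -0.99 for Gm14296. The level of mouse App differed between APP/PS1 and NTG mice by log2 0.03 (standard error 0.05), and counts on the mouse gene do not check the human transgene.

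The 5 genes act in different places. Fgfr3 is a receptor tyrosine kinase on the cell surface that binds fibroblast growth factors (FGFs), and in the adult brain it is known as a gene of astrocytes. Frem2 is a large extracellular matrix protein that forms the Fraser complex with Fras1 and Frem1 at basement membranes. Myoc encodes myocilin, a secreted glycoprotein with an olfactomedin domain known from the eye and from inherited glaucoma. Gramd3 has a GRAM domain, a lipid-binding module of membrane-associated proteins. Gm14296 is a predicted protein-coding gene in the distal part of chromosome 2, a region known for its cluster of KRAB zinc finger genes.

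The 250 bases upstream of the RefSeq start are shown for Frem2, Fgfr3 and Myoc (GRCm38.p6), 5′ to 3′ on the strand of the gene, to show how unlike these regions are in genes that had the same order of groups. The Frem2 region is chr3:53657356-53657605 on the minus strand, the Fgfr3 region is chr5:33721474-33721723 on the plus strand, and the Myoc region is chr1:162638900-162639149 on the plus strand. Capitals mark motifs that were searched on both strands, and no marked motif overlaps another. The letters TATAAA are a TATA box. The letters ATTGG are a CCAAT box read from the opposite strand. The letters CCGCCC are a GC box, which on the opposite strand is spelled GGGCGG.
Frem2: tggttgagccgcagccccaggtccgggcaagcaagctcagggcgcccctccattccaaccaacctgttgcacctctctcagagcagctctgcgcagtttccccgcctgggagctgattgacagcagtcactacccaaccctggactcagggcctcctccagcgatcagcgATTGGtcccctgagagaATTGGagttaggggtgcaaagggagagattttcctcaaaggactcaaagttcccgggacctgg
Fgfr3: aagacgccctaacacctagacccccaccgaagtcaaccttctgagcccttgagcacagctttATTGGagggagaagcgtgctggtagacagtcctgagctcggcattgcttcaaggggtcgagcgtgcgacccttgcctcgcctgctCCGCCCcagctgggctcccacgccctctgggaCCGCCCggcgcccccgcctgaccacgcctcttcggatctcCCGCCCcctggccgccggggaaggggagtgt
Myoc: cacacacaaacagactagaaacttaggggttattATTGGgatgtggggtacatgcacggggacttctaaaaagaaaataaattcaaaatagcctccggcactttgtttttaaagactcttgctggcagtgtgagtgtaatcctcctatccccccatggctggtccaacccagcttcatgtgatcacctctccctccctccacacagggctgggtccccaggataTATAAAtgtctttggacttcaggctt
The Fgfr3 region was rich in G and C (66.8%) with 19 CpG and 3 GC boxes, the nearest starting at -31, and 1 CCAAT box. The Frem2 region had 59.6% G and C, 8 CpG and 2 CCAAT boxes starting at -80 and -63. The Myoc region had 46.8% G and C, 2 CpG, a TATA box starting at -26 and 1 CCAAT box. Over 32851 promoters of RefSeq, regions of this length had a median of 52.4% G and C and 6 CpG, and a TATA box was found in 12.4%, a CCAAT box in 33.8% and a GC box in 32.7%. Neither a STAT motif (TTCNNNGAA, in 7.02% of promoters) nor an AP-1 motif (TGANTCA, in 6.75%) was in the 3 windows.

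Fgfr3, the receptor of the set, had the highest level per length and the smallest difference between groups. Its gene (ENSMUSG00000054252) lies on chromosome 5 from 33721724 to 33737068 (mm10). The level was 164, 164, 176 and 169 CPM in NTG mice 7 to 10, 115, 123, 122, 123 and 127 CPM in APP/PS1 mice 16 to 20, and 124, 124, 136, 116 and 136 CPM in CP2-treated mice 21 to 25. All 10 APP/PS1 mice were below the 4 NTG mice, with little spread in any group. The mean in vehicle APP/PS1 mice was 72.5% of the NTG mean (122 ± 4.45 against 168 ± 5.86 CPM, SD), a log2 fold change of -0.46 (standard error 0.04). In CP2-treated mice it was lower than in NTG mice by log2 -0.40 (standard error 0.05, adjusted p = 0.00122), and the difference from vehicle APP/PS1 mice was 0.06 (standard error 0.05, adjusted p = 0.824). Of its transcripts' 101-base windows, 8.76% are also found in G630022F23Rik.

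Frem2, the matrix protein, was near 40% of its NTG level in every vehicle APP/PS1 mouse and spread widely under CP2. The gene (ENSMUSG00000037016) lies on chromosome 3 from 53513939 to 53657355 (mm10). NTG mice had 13.6, 12.5, 12.7 and 14.7 CPM, vehicle APP/PS1 mice had 5.85, 5.002, 4.63, 6.10 and 5.33 CPM, and CP2-treated mice had 6.45, 6.27, 11.1, 13.7 and 4.07 CPM. CP2-treated mouse 24 was inside the NTG range, mouse 23 was between the ranges and mouse 25 was below every other mouse. Group means were 13.4 ± 0.996, 5.38 ± 0.604 and 8.32 ± 3.96 CPM (SD), with a log2 fold change of -1.31 (standard error 0.10) between vehicle APP/PS1 and NTG mice. CP2-treated mice differed from NTG mice by log2 -0.68 (standard error 0.28, adjusted p = 0.205) and from vehicle APP/PS1 mice by 0.63 (standard error 0.28, adjusted p = 0.744), neither of which passed the test.

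Myoc, the secreted protein, had the largest log2 difference of the set. The gene (ENSMUSG00000026697) lies on chromosome 1 from 162639155 to 162649693 (mm10). Levels were 31.4, 46.1, 28.6 and 29.4 CPM in NTG mice, 12.4, 11.4, 11.4, 8.48 and 8.59 CPM in vehicle APP/PS1 mice, and 13.1, 8.65, 22.1, 30.3 and 28.5 CPM in CP2-treated mice. NTG mouse 8 was far above the other 3, and the CP2-treated mice ranged from the level of the vehicle APP/PS1 mice (mouse 22) to that of the NTG mice (mouse 24). Group means were 33.9 ± 8.23, 10.5 ± 1.79 and 20.5 ± 9.45 CPM (SD), and the log2 fold change between vehicle APP/PS1 and NTG mice was -1.70 (standard error 0.17). The fitted level in CP2-treated mice was 195.9% of that in vehicle APP/PS1 mice, a log2 fold change of 0.97 (standard error 0.30, adjusted p = 0.744). The CP2-treated level differed from NTG by -0.72 (standard error 0.32, adjusted p = 0.234). On the other strand 7420461P10Rik (Myocos in GENCODE M21, 162647193 to 162658219) overlaps the end of Myoc and had 76 to 366 counts per mouse. The strand setting of the counting is not given in the sources used here, and without strand the reads of the 2 genes cannot be told apart where they overlap.

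Gramd3, the GRAM domain gene, had the widest gap, as a ratio, between vehicle APP/PS1 and NTG mice among the 5 genes, which were chosen for groups that do not overlap. The table places it (ENSMUSG00000001700) on chromosome 18 from 56432132 to 56503792 (mm10). NTG mice had 17.3, 19.2, 18.7 and 17.3 CPM, vehicle APP/PS1 mice had 6.31, 6.13, 6.65, 6.59 and 5.95 CPM, and CP2-treated mice had 5.87, 7.02, 11.7, 5.41 and 6.96 CPM. The lowest NTG value was 2.61 times the highest vehicle APP/PS1 value, and CP2-treated mouse 23 alone was well above the other APP/PS1 mice while below every NTG mouse. Group means were 18.1 ± 0.956, 6.33 ± 0.296 and 7.38 ± 2.49 CPM (SD), and the log2 fold change was -1.52 (standard error 0.06) between vehicle APP/PS1 and NTG mice. Gramd3 was also lower in CP2-treated than in NTG mice, by log2 -1.30 (standard error 0.19, adjusted p = 0.00220). With CP2 its level differed from that with vehicle by log2 0.22 (standard error 0.18, adjusted p = 0.815), and by -0.0071 without mouse 23.

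Gm14296 was by the fit at 49.98% of its NTG level in vehicle APP/PS1 mice, and 1 CP2-treated mouse had the NTG level. The gene (ENSMUSG00000074527) lies on chromosome 2 from 176892509 to 176927809 (mm10, minus strand). Levels were 27.4, 23.9, 26.1 and 26.2 CPM in NTG mice, 12.7, 12.1, 13.8, 13.99 and 12.1 CPM in vehicle APP/PS1 mice, and 14.9, 25.6, 13.6, 15.8 and 15.02 CPM in CP2-treated mice. Mouse 22 stood at the NTG level, and the other 4 CP2-treated mice were at or slightly above the vehicle APP/PS1 mice. Group means were 25.9 ± 1.49, 12.9 ± 0.920 and 16.99 ± 4.88 CPM (SD), with a log2 fold change of -1.001 (standard error 0.07) between vehicle APP/PS1 and NTG mice. CP2-treated mice were lower than NTG mice by -0.61 (standard error 0.16, adjusted p = 0.0496), which grew to -0.80 (adjusted p = 0.000398) without mouse 22 and lost the call without any 1 of the other 8 mice (adjusted p from 0.0804 to 0.120). The difference from vehicle APP/PS1 mice was 0.39 (standard error 0.15, adjusted p = 0.744). These counts are uncertain, since 51.7% of the 9865 windows of 101 bases in its transcripts are also found in 16 other genes, and AL845456.1 (176895864 to 176897131, 60 to 141 counts) lies inside it.

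**Figure D1:**
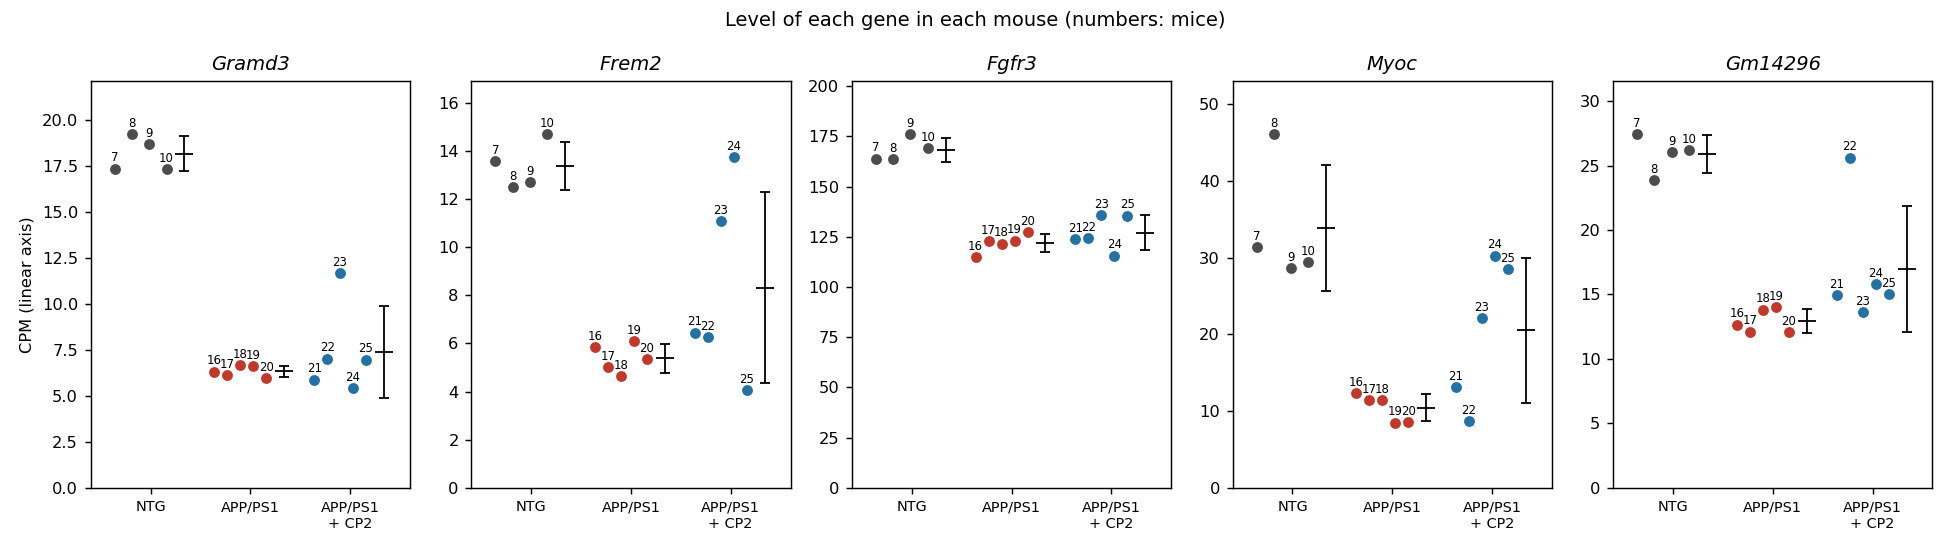
Level of each gene (linear CPM axis, from 0) in each of the 14 mice, numbered, with the group mean and SD drawn at the right of each group of points. Every vehicle APP/PS1 mouse is below every NTG mouse in all 5 panels, as chosen, and single CP2-treated mice reach the NTG range for Frem2 (mouse 24), Myoc (mouse 24) and Gm14296 (mouse 22). Mouse 25 lies just below that range for Myoc (28.5 against 28.6 CPM).

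The CP2-treated mice did not enter the choice of the genes, while the groups they are set against did. Of the 5 genes, 3 (Gramd3, Fgfr3 and Gm14296) were lower in CP2-treated than in NTG mice with an adjusted p under 0.05, where 1.46% of all genes tested were. For Gramd3 and Fgfr3 all 5 CP2-treated mice were below all 4 NTG mice, an order found in 3.30% of all genes tested. For the other 3 genes 4 of 5 were, mouse 25 only just for Myoc (28.5 against 28.6 CPM). The choice for high values in these same NTG mice itself favours lower values against NTG, so these shares are no fair background. Between APP/PS1 mice with CP2 and with vehicle 0 of the 5 genes passed the edgeR test in either direction, where 0.00609% of all genes were lower and 0% higher. In that comparison 3 of the 5 (Frem2, Myoc and Gm14296) had an unadjusted p under 0.05 in edgeR, all of them higher under CP2. By p they ranked 999, 164 and 613 of the 16407 genes tested, counted from the smallest. The 5 genes were chosen for low values in these same vehicle mice, so the choice itself favours higher values under CP2. DESeq2 called 0 of the 5 with 3 unadjusted p values under 0.05, and limma-voom called 0 with 1. The 3 comparisons share mice, so that a value set apart in 1 group moves 2 of them.

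**Figure D2:**
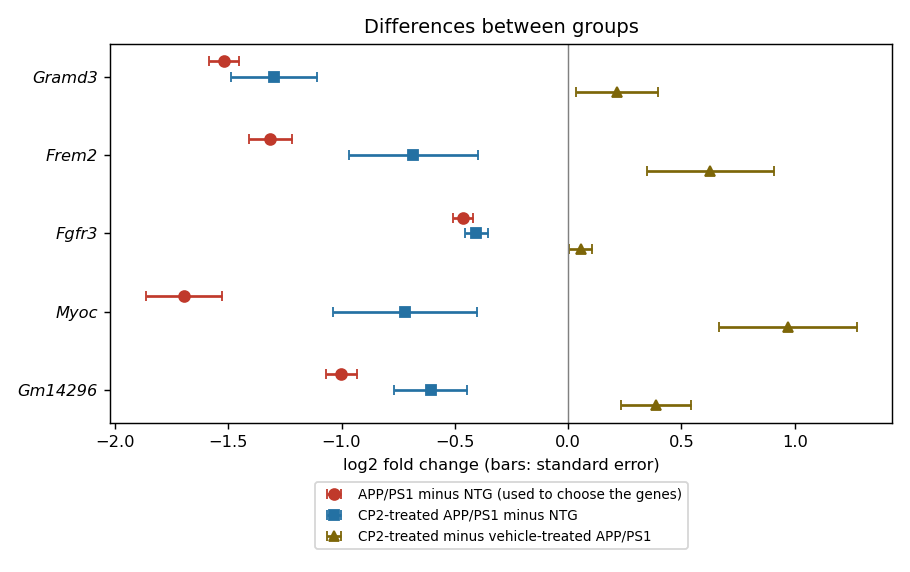
Log2 fold change (horizontal axis) of each gene in the 3 comparisons, with the standard error as bars. Differences from NTG run from -1.70 to -0.40, and the differences of CP2-treated from vehicle APP/PS1 mice run from 0.06 for Fgfr3 to 0.97 for Myoc.

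Within groups, 4 of the 5 genes were more spread than most genes under CP2, and Myoc was in the other groups too. The SD of log2 CPM (prior count 2) in CP2-treated mice was 0.775 for Myoc, 0.6999 for Frem2, 0.430 for Gramd3 and 0.361 for Gm14296, against a median of 0.105 over all genes tested, which placed them at percentiles 99.6, 99.4, 97.3 and 95.4. Fgfr3 had 0.0986, at percentile 46.7. In NTG mice, where the median over all genes was 0.110, Myoc had 0.320 (percentile 92.3) and the other 4 genes had 0.0498 (Fgfr3) to 0.106 (Frem2), at percentiles 12.3 to 47.7. In vehicle APP/PS1 mice, where the median was 0.133, Myoc had 0.254 (percentile 78.4), Frem2 0.162 (percentile 59.8) and the other 3 genes 0.0532 (Fgfr3) to 0.102 (Gm14296), at percentiles 8.43 to 34.9. The values in these 2 groups chose the genes. A large SD rested on 1 mouse for Gm14296, with 0.0884 without mouse 22, and in part for Gramd3, with 0.185 without mouse 23, whereas for Frem2 and Myoc it was at least 0.565 and 0.549 without any 1 mouse. Mouse 23 was high alone for Gramd3, with mouse 24 for Frem2 and with mice 24 and 25 for Myoc. For Gm14296 the high mouse was mouse 22.

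Per length, the order of mean levels in NTG mice was Fgfr3 (19.6 ± 0.980 RPKM, SD, read counts divided by gene length and library size), Myoc (13.1 ± 2.80), Gramd3 (5.58 ± 0.138), Gm14296 (2.11 ± 0.174) and Frem2 (0.872 ± 0.0936), and neighbours in that order were further apart than their SDs. In vehicle APP/PS1 mice the means were 14.8, 4.23, 2.04, 1.098 and 0.365 RPKM in the same order, and in CP2-treated mice 15.2, 8.18, 2.33, 1.43 and 0.557 RPKM.

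Other receptors and co-receptors for FGFs did not pass the test. Of the 4 tested (Fgfr1, Fgfr2, Fgfrl1 and the co-receptor Kl), 0 were lower and 0 higher, with Fgfr1, the most similar in level, at a log2 fold change of -0.01 (standard error 0.13), Fgfr2 at -0.29 (standard error 0.16, adjusted p = 0.392) the short receptor Fgfrl1 at 0.38 (standard error 0.15, adjusted p = 0.207) and Kl at -0.33 (standard error 0.67, adjusted p = 0.844). Per length, Fgfr3 was the highest of these receptors in NTG mice (19.6 RPKM), above Fgfr1 (8.85 ± 0.818) and Fgfr2 (8.02 ± 0.869), which did not differ beyond their SDs, and above Fgfrl1 (5.11 ± 0.0715). Fgfr4 was under the limit on low counts with 0.0612, 0.183 and 0.127 RPKM in the 3 groups. Among 12 FGF ligands 0 were called, with a median log2 fold change of -0.20 against -0.0042 over all genes. Among 16 adaptors, feedback inhibitors and target genes 1 fell, where 1.34% of all genes did, Spry4, a feedback inhibitor of receptor signals (16.9 to 11.7 CPM, log2 -0.54, standard error 0.10, adjusted p = 0.0136). In CP2-treated against NTG mice Spry4 was at -0.40 (adjusted p = 0.0654), and there Etv4, a transcription factor induced by FGF signals, was lower (-0.47, adjusted p = 0.0142) and the adaptor Frs2 higher (0.13, adjusted p = 0.0488, over 0.05 without any 1 mouse), both named after their values were seen.

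Partners of Frem2 in the Fraser complex did not pass the test either. Fras1 was at a log2 fold change of 0.26 (standard error 0.24, adjusted p = 0.641) and Frem1 at -0.08 (standard error 0.22, adjusted p = 0.885), and 0 of 5 tested genes of the list were called. Frem3 was under the limit on low counts in this comparison, with 1.53 ± 0.723 CPM in NTG and 1.74 ± 0.662 CPM in vehicle APP/PS1 mice (SD). Of 20 basement membrane genes, 4 laminin chains rose: Lamc1 (0.31, adjusted p = 0.00408), Lamc3 (0.44, adjusted p = 0.0326), Lamb2 (0.41, adjusted p = 0.0361) and Lama1 (0.66, adjusted p = 0.0480), where 4.34% of all genes did. The median of the list was 0.22. Only Lamc1 kept its call without each mouse in turn, and the list had 6 calls without APP/PS1 mouse 16 and 1 or 2 without any 1 of the other 8 mice. In CP2-treated against NTG mice 5 were higher, where 4.56% of all genes were, these 4 and Col4a6 (0.79, adjusted p = 0.0218), the last named after its values were seen, and from 1 to 7 were with 1 mouse left out, fewest without NTG mouse 9 or 10.

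In the olfactomedin family of Myoc 1 of 11 tested genes rose, Gldn (1.62 to 4.68 CPM, log2 1.53, standard error 0.23, adjusted p = 0.00301, where 4.34% of all genes rose), a secreted or membrane-bound protein known from nodes of Ranvier. Olfm1 was at -0.13 (adjusted p = 0.602), Olfm2 at 0.02 (adjusted p = 0.936) and Olfm3 at -0.15 (adjusted p = 0.674). In CP2-treated against NTG mice 3 of 12 were higher, where 4.56% of all genes were, Gldn (1.18, adjusted p = 0.0113) and, named after their values were seen, Olfml3 (0.73, adjusted p = 0.00141) and the adhesion receptor Lphn2 (0.20, adjusted p = 0.0493, over 0.05 without any 1 mouse). In the GRAM family 0 of 5 were called, with Gramd1a at -0.03, Gramd1b at -0.12, Gramd1c at 0.47 and Gramd4 at -0.20 (adjusted p from 0.183 to 0.871). Of 6 genes for co-repressors that KRAB zinc finger proteins use, Trim28 among them, 0 were called, and their median was -0.0078.

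**Figure D3:**
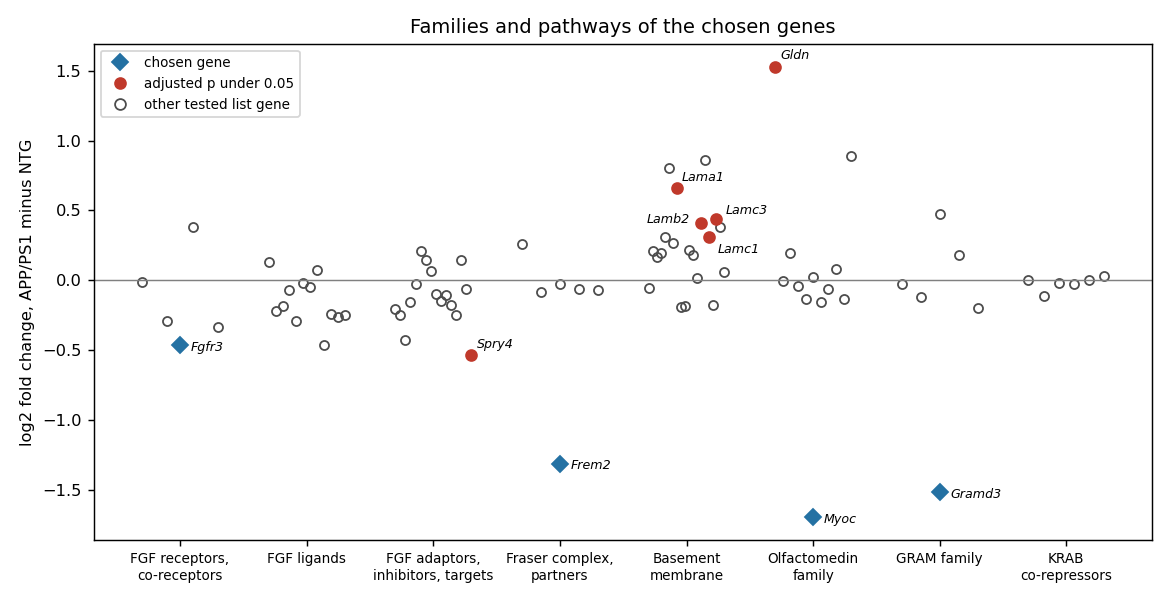
Log2 fold change between vehicle APP/PS1 and NTG mice (vertical axis) of the tested genes of each list, with the gene set for which the list was made as a diamond and genes with an adjusted p under 0.05 filled. Frem2, Myoc and Gramd3 lie below every other tested gene of their lists and Fgfr3 below the other receptors, while Spry4 (-0.54) lies lower still and the ligand Fgf20 (-0.46) lies level with it, and the 6 called genes are Spry4, 4 laminins and Gldn.

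Of 14 astrocyte markers, 13 did not pass the test between vehicle APP/PS1 and NTG mice, and the median log2 fold change of the 14 was -0.058. Against NTG, 1.34% of all genes tested were lower and 4.34% higher in vehicle APP/PS1 mice, and 1.46% and 4.56% in CP2-treated mice. All mice were below all NTG mice in 3.83% and 3.30% of single genes, and no such share was counted for summed lists. The summed level of the 14, which abundant genes dominate, was 7049.8 to 7656.2 CPM in NTG, 6217.5 to 6770 CPM in vehicle APP/PS1 and 6347.7 to 6761.7 CPM in CP2-treated mice, with no overlap with NTG and no marker at 0 in any mouse. The 1 called was lower, the glutamate transporter Slc1a2 (log2 -0.41, adjusted p = 0.0442), and its call was lost without any 1 of 7 of the 9 mice. In CP2-treated against NTG mice Slc1a2 (-0.31, adjusted p = 0.0267) and the connexin gene Gjb6 (-0.32, adjusted p = 0.0172) were lower and the water channel gene Aqp4 was higher (0.50, adjusted p = 0.0289). All 6 tested markers of reactive astrocytes were higher, and the summed level of the 8 listed rose from at most 598 CPM in NTG to at least 1180.2 CPM in vehicle APP/PS1 mice. In CP2-treated mice it was 2364 and 2439.4 CPM in mice 21 and 22 and 1417.1 to 1452.5 CPM in mice 23 to 25, the 3 mice with the highest Myoc. Summed markers of meninges and vascular fibroblasts overlapped between all groups, from 107.4 to 316.5 CPM. Those of mural cells did not overlap with NTG, with 123.2 to 147.9 CPM in NTG, 155.4 to 253 CPM in vehicle APP/PS1 and 193.7 to 238.8 CPM in CP2-treated mice, and 0 of 6 were called in vehicle APP/PS1 and 3 in CP2-treated mice. Microglial markers summed to 353.9 to 370.2 CPM in NTG, 641.6 to 840.1 CPM in vehicle APP/PS1 and 533.7 to 789.7 CPM in CP2-treated mice, with 7 and 6 of 9 higher. Markers of plaque-associated microglia summed to 141.5 to 187.9 CPM in NTG, 277 to 441.3 CPM in vehicle APP/PS1 and 252.1 to 375.1 CPM in CP2-treated mice. Markers of dentate gyrus granule cells, hippocampal neurons, had a median log2 fold change of -0.90 in vehicle APP/PS1 mice, with 1 of 6 called (Tdo2, -1.17, adjusted p = 0.0144), and summed to 166.3 to 210.7 CPM in NTG, 108.4 to 167.7 CPM in vehicle APP/PS1 and 161.3 to 177.5 CPM in CP2-treated mice. In CP2-treated against NTG mice 2 of these 6 were lower. The part of any of these in the levels of the 5 genes was not tested.

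Aldh7a1 beside Gramd3 and several genes around Gm14296 were lower in vehicle APP/PS1 than in NTG mice. Of the 8 tested genes (of 21 in the table) within 1 Mb of Gramd3, 1 was lower, Aldh7a1, a lysine-degrading aldehyde dehydrogenase that starts 5.90 kb after Gramd3. Over all genes tested 1.34% were lower, and the median log2 fold change of the 8 was -0.03. Aldh7a1 had 84.6, 87.1, 86.4 and 84.7 CPM in NTG, 34.3, 36.7, 35.5, 40.3 and 62.1 CPM in vehicle APP/PS1 and 38.9, 39.3, 56.8, 35.6 and 51.7 CPM in CP2-treated mice. Every APP/PS1 mouse was below every NTG mouse, an order found in 3.83% of all genes tested with vehicle and 3.30% with CP2. Mouse 23 was the highest CP2-treated mouse for Gramd3 and for Aldh7a1, while APP/PS1 mouse 20 was high for Aldh7a1 only. For Aldh7a1 this was a log2 fold change of -1.04 (standard error 0.16, adjusted p = 0.00373), and -0.95 (standard error 0.12, adjusted p = 0.00122) in CP2-treated against NTG mice. The next tested gene, Phax, was at 0.12 (adjusted p = 0.371), and no gene within 1 Mb before Gramd3 was tested.

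Around Gm14296, 7 of the 16 tested genes (of 53 in the table) within 1 Mb were lower and 0 higher in vehicle APP/PS1 mice, against 1.34% of all genes lower. They were Gm8898 (-0.87), Gm2026 (-0.67), Gm14306 (-1.12), Gm14305 (-1.21), Gm14295 (-0.88, the nearest tested gene before Gm14296), AL845456.1 (-0.87) and Gm14410 (-0.94), all predicted genes, with adjusted p from 0.000696 to 0.00613 and calls that held without each mouse in turn. Their mean levels in NTG mice were low, between 1.35 and 6.36 CPM, and low genes enter the test through the group in which they are high. AL845456.1 had at most 0.828 CPM in vehicle APP/PS1 mice, so that it entered through the NTG mice. It also lies inside Gm14296 and can share reads with it, so its difference is given as a description. The counts of 7 called neighbours here and below include it, and its place among them is not a separate result. The median of the 16 genes was -0.46. Gm14419, the nearest tested gene after Gm14296, was at -0.51 (adjusted p = 0.0888). Gm14296 shares most windows with 2210418O10Rik (39.9%) and Gm17258 (10.8%), neither of them a called neighbour. Sharing among the neighbours themselves was not measured, so counts of these genes may not be independent of each other.

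CP2-treated mouse 22, chosen after its Gm14296 level was seen, was the highest CP2-treated mouse in 6 of these 7 neighbours (the overlapping AL845456.1 among them) and at or above the lowest NTG mouse in the same 6. Over all 16 tested neighbours it was the highest in 9 and at or above the lowest NTG mouse in 14, and in 8 of the 16 some vehicle APP/PS1 mouse was not below every NTG mouse. Gm14305, for example, had 5.48 CPM in mouse 22 and 2.72 to 2.95 CPM in the other CP2-treated mice, where NTG mice had 4.99 to 7.03 CPM, and Gm14306 had 2.44 CPM against at most 1.26 CPM. In Gm2026 mouse 25 was the highest, with 1.55 CPM against 1.53 CPM in mouse 22. In CP2-treated against NTG mice 3 of the 16 were lower, Gm2026 (-0.43), Gm14305 (-0.83) and Gm14295 (-0.77), with 4 called without mouse 22 and 0 or 1 without any 1 of the other 8 mice.

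**Figure D4:**
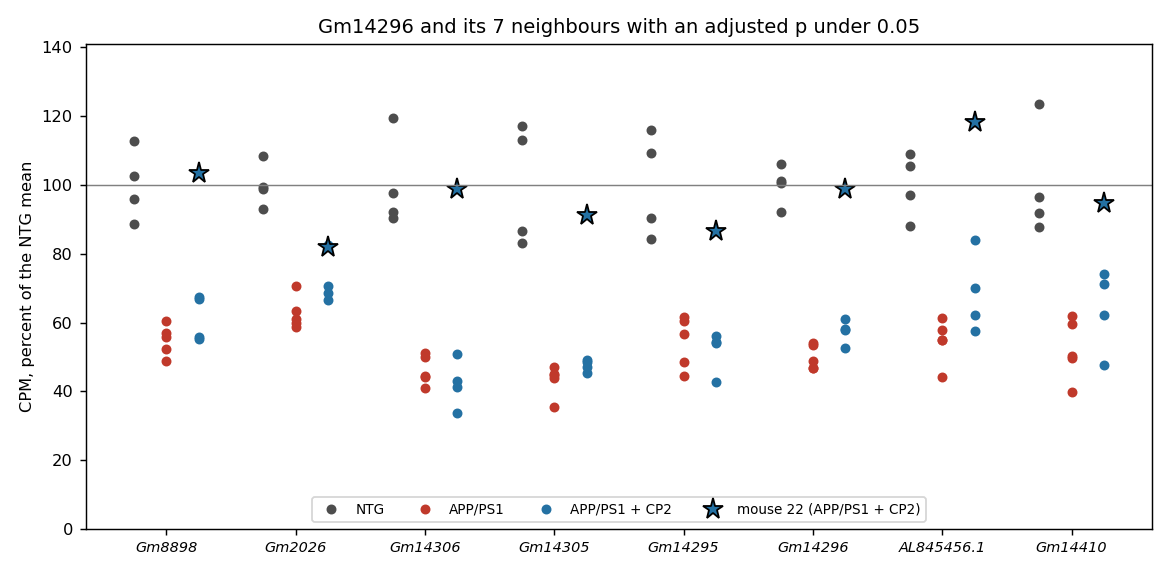
Level of Gm14296 and of the 7 called neighbours, in order along chromosome 2, in each mouse as a percent of the NTG mean (vertical axis, from 0), with CP2-treated mouse 22 as a star. Of the neighbours, AL845456.1 lies inside Gm14296 and can share reads with it. The star lies with the NTG mice in every column but Gm2026, and the other 4 CP2-treated mice lie below the lowest NTG mouse in every column, with mouse 25 close to it in AL845456.1 (1.14 against 1.19 CPM) and mice 24 and 25 between the groups in Gm14410.

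Around the other 3 genes few neighbours passed the test. Over all genes tested 1.34% were lower and 4.34% higher. Of 13 tested genes near Myoc 1 was lower, the overlapping 7420461P10Rik (3.33 to 1.09 CPM). It can share reads with Myoc and was under 1 CPM in vehicle APP/PS1 mice 19 and 20, so that it entered the test through the NTG mice, and its difference is given as a description. The nearest genes not overlapping Myoc, Vamp4 before and Prrc2c after it, were at -0.04 and 0.11. Of 8 near Frem2 1 was higher, Postn, a matrix protein 703.8 kb away (0.75, adjusted p = 0.0248, lost without any 1 of 6 mice), and Proser1 before and Ufm1 after Frem2 were at 0.05 and -0.10. Of 30 near Fgfr3 1 was higher, the adaptor Sh3bp2 788.8 kb away (1.23, adjusted p = 0.000833), and Tacc3 before and Letm1 after Fgfr3 were at 0.04 and -0.06.

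**Figure D5:**
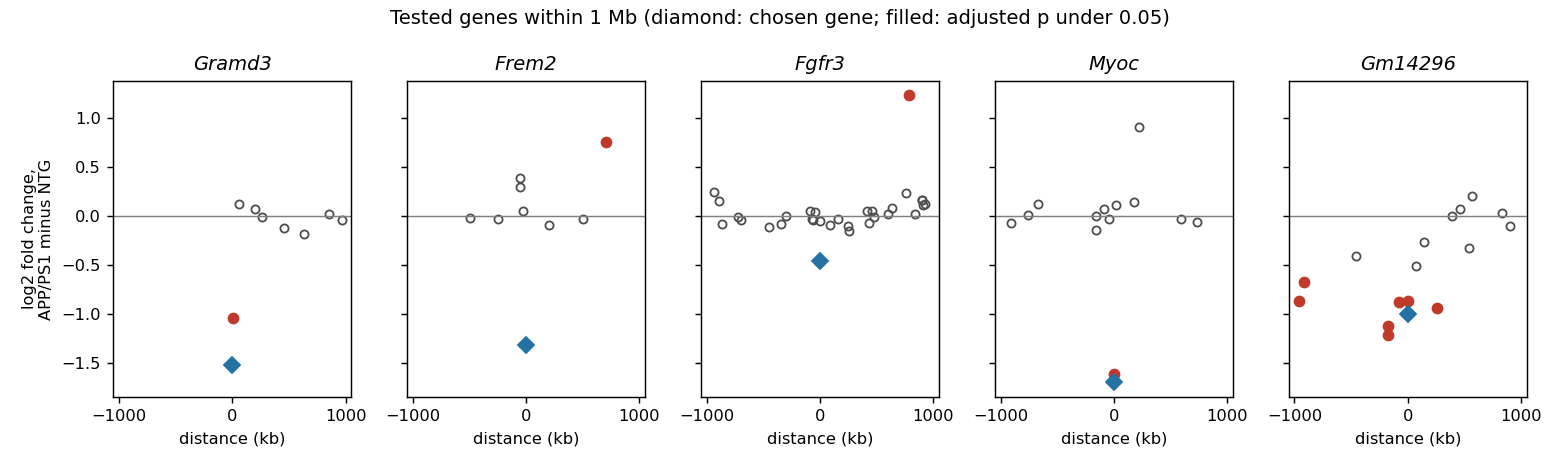
Log2 fold change between vehicle APP/PS1 and NTG mice (vertical axis) of every tested gene within 1 Mb of each of the 5 genes, by distance in kb from the gene's nearer end (negative: before it on the chromosome, 0: overlapping). Filled points have an adjusted p under 0.05: 7 around Gm14296 and 1 around each of the others. The 7 include AL845456.1 and the 1 around Myoc is 7420461P10Rik, which overlap the chosen genes and can share reads with them.

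Likeness of profiles was measured as the mean absolute difference of centred log2 CPM over the 14 mice, among 16197 genes tested in all comparisons, and is a description. Closest to Gramd3 were Aldh7a1 (0.24), A930012L18Rik (0.26, also on chromosome 18) and the receptor gene Lgr6 (0.27). Closest to Frem2 were Apln (0.27), which encodes the peptide apelin, Cdr1 (0.30) and 9930104L06Rik (0.30). Closest to Fgfr3 were the phospholipase gene Plcd3 (0.055), Bcan (0.079), which encodes the brain proteoglycan brevican, and Purb (0.084). Closest to Myoc were Frem2 (0.36), Cthrc1 (0.39) and Cdr1 (0.40), and closest to Gm14296 were Gm8898 (0.12), Gm14305 (0.16) and Gm4631 (0.18), all on chromosome 2. In Cthrc1, a secreted matrix protein gene, CP2-treated mice 23, 24 and 25 had 7.32, 6.49 and 7.96 CPM and mice 21 and 22 had 3.59 and 4.05 CPM, the same division as in Myoc. Gm4631 was highest of the CP2-treated mice in mouse 22, with 99.5 CPM against 68.6 to 74.8 CPM in the others. Cthrc1 and Gm4631 were picked for likeness over these same mice, so a shared order of mice follows from the choice.

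The line drawn after Myoc leaves out genes with nearly the same values. The next 3 by p among genes with the same order of groups were Gpc5, a heparan sulfate proteoglycan (49.9 to 28.0 CPM, log2 -0.83), Gm14305 (6.00 to 2.59 CPM, -1.21) and Gm14306 (2.47 to 1.14 CPM, -1.12). Gpc5 had 27.7 to 33.7 CPM in CP2-treated mice, all below the lowest NTG mouse (44.5 CPM).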

How the data were processed

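RNA was taken from hippocampal and cortical brain tissue of 14 mice and sequenced with paired ends after TruSeq RNA v2 preparation. The authors used TopHat2 with the mm10 genome and FeatureCounts with Ensembl genes, and a read overlapping several genes was counted for all of them. Raw read counts and RPKM were deposited. RPKM were used only to compare levels between genes and entered no test. The strand setting and tool versions are not given in the sources used here.

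Counts were analysed in R 4.3.3 with edgeR 4.0.16 (TMM factors, quasi-likelihood test, Benjamini-Hochberg adjustment over all genes tested), each pair of groups alone, keeping genes with robust normalized CPM above 1 in all mice of any 1 group. CPM use TMM-adjusted library sizes. Sequence searches used Python 3.11.15. The fit was tested on simulated data. Alternatives were DESeq2 1.42.0, RLE and upper-quartile factors, limma-voom (limma 3.58.1) with quality weights, a single fit of the 3 groups, no filter on low counts, at least 10 counts per mouse, the share of ribosomal RNA-like counts as a covariate, and each mouse left out in turn. The lowest chi-square per degree of freedom between 2 replicates (26 pairs) was 12.3, so each mouse counts once. Replicates are separate mice, and p-values measure the spread between them.

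The 5 genes and the gene lists were chosen with earlier results of these data known. Named genes are the 5, list genes called at 0.05 between APP/PS1 and NTG, their closest family members, nearest and called neighbours within 1 Mb, the 3 most similar profiles of each and the 3 genes next by p. Limits of 3 counts cover counting error only. Promoter sequences are RefSeq (GRCm38.p6), with entries for 3 of the 5 genes, and for Fgfr3 the entry whose start matches the table was used. Shared windows were counted on GENCODE M21 transcripts. NTG mice given CP2 were not used here. The level of 1 further gene is not reported here.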

Additional observations from a re-analysis of the deposited data

Results flagged for a closer look

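In each of the 5 genes and 3 groups the highest and the lowest mouse were compared with the rest by Dixon's ratio, and 3 of 15 groups passed the limit. Chance gives about 1 in 20 for groups not chosen on their values, which 10 of the 15, the NTG and vehicle APP/PS1 groups, were. Gramd3 was 11.67 CPM in CP2-treated mouse 23, with the next mouse at 7.02 CPM (gap over range 0.743). Myoc was 46.11 CPM in NTG mouse 8, with the next at 31.4 CPM (0.844). Gm14296 was 25.62 CPM in CP2-treated mouse 22, with the next at 15.8 CPM (0.82). Without NTG mouse 8 the log2 fold change of Myoc between vehicle APP/PS1 and NTG mice was -1.51. The cause of each was not tested.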

How the results depend on the processing

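No paired analysis was possible because the groups share no replicate numbers. That the 5 genes were lower in vehicle APP/PS1 than in NTG mice in each alternative follows from their choice. Against NTG, CP2-treated mice kept the call of Gramd3 and Fgfr3 in all alternatives and never had one for Frem2 and Myoc. Gm14296 lost it with upper-quartile factors (-0.60, adjusted p = 0.0541), at least 10 counts in every mouse (-0.61, adjusted p = 0.0519) and the ribosomal RNA covariate (-0.65, adjusted p = 0.0541), and ranged from -0.80 to -0.54 with 1 mouse left out. Gramd3 in CP2-treated against vehicle APP/PS1 mice ranged from -0.0071 (without mouse 23, a change of sign) to 0.31.

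Between vehicle APP/PS1 and NTG mice 932 genes were called, 1667 by DESeq2 and 1563 by limma-voom, and 578 to 1474 with 1 mouse left out (lowest without mouse 9, highest without mouse 16). Of these 220 were lower, 569 by DESeq2, 455 by limma-voom, 406 with all 3 groups in one fit, 74 with the ribosomal RNA covariate and 109 to 380 with 1 mouse left out. Between CP2-treated and NTG mice 989 were called (1670 by DESeq2, 572 to 1123 with 1 mouse left out), 240 of them lower (595 by DESeq2, 108 to 306). Between the APP/PS1 groups 1 gene was called, lower, and 23 by DESeq2 (15 lower), 0 with all groups in one fit, 2 with the covariate and 0 to 1 with 1 mouse left out. List genes called were 6 against NTG in vehicle-treated mice (10 by DESeq2, 3 to 11 with 1 mouse left out) and 10 in CP2-treated mice (4 to 11). Neighbours called were 11 (7 within 500 kb), the overlapping AL845456.1 and 7420461P10Rik among them, and 5 (3 within 500 kb, 12 by DESeq2, 2 to 6 with 1 mouse left out). The cause of these changes was not tested, except that the narrower distance holds fewer genes. With scaled profiles the 3 most alike genes of Gm14296 were the same 3, while 1 of 3 was shared for Fgfr3 and Myoc and 0 for Gramd3 and Frem2. Each of the 5 genes had at least 329 counts in every mouse.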
